A study of Arabidopsis thaliana with 32 samples.

Results

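The 7 genes described here belong to the iron deficiency response of Arabidopsis thaliana and are FEP1 (AT2G30766), AT1G47395, AT1G47400, IRP3 (AT2G14247), DEFL (AT1G13609), AT5G05250 and AT3G56360. They were selected on their level in these same leaves, as genes of the iron response that were lower after photoinhibition of photosystem I (PSI), were found by identifier, and are 7 of the 21525 genes in the table. All 7 were among the 21469 genes that passed the filter on low values. The samples were leaves of wild-type Col-0 plants aged 6 to 7 weeks and grown under an 8 h day, with no mutant or transgenic line in any group. Plants received 3 h of either PSI photoinhibition light (PSI-PI) or growth light (GL) at 0, 100, 400 or 1000 ppm CO2, which gave 8 groups of 4 leaves, each leaf a biological replicate, and 32 RNA-seq libraries. PSI-PI alternated weak red light (wavelength 660 nm, intensity 35 µmol photons per square metre per second) for 5 s with a white pulse of 1000 µmol for 1 s, with 30 s at 100 µmol after every 3 repeats. GL was constant at 100 µmol, and 400 ppm was the CO2 level of ordinary air.

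Iron is needed in leaves for heme and for the iron-sulfur clusters of PSI and ferredoxin, and free iron is toxic, so plants hold uptake and storage in balance. When iron is short, subgroup Ib bHLH transcription factors such as BHLH38, BHLH39, BHLH100 and BHLH101 are made, and the E3 ubiquitin ligase BTS with its relatives BTSL1 and BTSL2 degrades bHLH factors that switch the response on. FEP1, AT1G47395 and AT1G47400 encode members of the IRON MAN or FE-UPTAKE-INDUCING PEPTIDE family, short peptides that are made under iron deficiency and bind BTS-type ligases. IRP3 encodes an iron-responsive protein, DEFL a defensin-like peptide, and AT5G05250 and AT3G56360 proteins with no assigned function, all named in the study as iron deficiency genes. Ferritins such as FER1 and FER4 are the storage side of the balance: they hold iron in the chloroplast when it is plentiful.

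The peptide genes are small, and AT1G47395 and AT1G47400 are near copies of each other. In the RefSeq annotation of TAIR10.1, AT1G47395 is a gene without introns on the plus strand at chr1:17382998-17383830 and AT1G47400 another at chr1:17385707-17386485, with 1876 bases and 0 protein-coding genes between them. Their coding regions, of 153 bases each, were identical at 136 positions (88.9%) and differed at 17, with no gap. They are shown in full because the expression values below depend on whether reads could be told apart between them, and capitals mark the positions at which they differ.
AT1G47395: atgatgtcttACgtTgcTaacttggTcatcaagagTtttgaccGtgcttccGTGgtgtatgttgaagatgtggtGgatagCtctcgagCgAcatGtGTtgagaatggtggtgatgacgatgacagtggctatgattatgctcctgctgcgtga
AT1G47400: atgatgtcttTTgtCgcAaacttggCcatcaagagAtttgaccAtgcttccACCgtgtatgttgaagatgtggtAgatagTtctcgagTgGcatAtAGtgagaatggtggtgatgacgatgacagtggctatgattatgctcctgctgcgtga
The differences lay in the first part of the coding region, and the end, which encodes the conserved tail of the peptide, was the same in the pair. Over their whole transcripts, AT1G47395 and AT1G47400 shared 29 runs of 31 bases, of 803 such runs in AT1G47395 and 749 in AT1G47400. The authors' counting program, Salmon, divides reads that match several transcripts, so a small part of the reads of this pair may have been split between them, and their values are uncertain to that extent. FEP1 (chr2:13107583-13110480, plus strand, 2 transcripts, coding region of 144 bases) was 53.2% and 54.8% identical to AT1G47395 and AT1G47400 in the coding region and shared 0 runs of 31 bases with them.

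FEP1 overlaps a gene on the opposite strand at each end, AT2G30760 by 639 bases and CYP71A13 (AT2G30770), a cytochrome P450 gene, by 572 bases. The FEP1 coding region (chr2:13108068-13108211) lies inside the stretch shared with AT2G30760. The strand setting of the counting is not given in the sources used here, so reads from FEP1 and from these neighbours may not have been told apart, and FEP1 values are uncertain in that respect. AT2G30760 was listed at 0 to 8.05 normalized counts in all 32 leaves. In GL its highest leaf was also the highest of FEP1 at 0 ppm (leaf 1, 4.32), 400 ppm (leaf 4, 8.05) and 1000 ppm (leaf 2, 7.15). At 100 ppm its highest GL leaf was leaf 3, at 3.84, and that of FEP1 was leaf 4. CYP71A13 was highest in 1000 ppm PSI-PI leaves 2 and 3, at 193 and 481 normalized counts, where FEP1 read 20.2 and 27.0. The value of 27.0 was the highest of FEP1 in any PSI-PI leaf. In every PSI-PI group the leaf with the most CYP71A13 also had the most FEP1. It was leaf 3 at 0, 100 and 1000 ppm and leaf 2 at 400 ppm. In GL the same held at 0 and 400 ppm and did not hold at 100 and 1000 ppm. Below the top leaf, CYP71A13 and FEP1 were ordered differently in every PSI-PI group. At 1000 ppm, PSI-PI leaf 4 read 4.79 for CYP71A13 and 21.5 for FEP1, more FEP1 than leaf 2. At 400 ppm, PSI-PI leaf 4 was listed at 0 for CYP71A13 and read 11.7 for FEP1. At 0 ppm, PSI-PI leaf 4 read 1.03 for CYP71A13 and 11.6 for FEP1, against 11.9 for FEP1 in leaf 3. Whether reads of AT2G30760 or CYP71A13 entered the FEP1 values was not tested. IRP3 (chr2:6034282-6035375, plus strand) overlaps the long non-coding RNA gene AT2G06085 on the opposite strand by 233 bases, and AT2G06085 was not analysed here. The other members overlap no annotated gene: DEFL lies at chr1:4662698-4663253 on the plus strand, AT5G05250 at chr5:1556987-1558486 on the minus strand and AT3G56360 at chr3:20896332-20897747 on the plus strand, with coding regions of 237, 720 and 702 bases.

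The 250 bases before each annotated transcript start were searched for the E-box, CANNTG, the hexamer that bHLH factors bind, and for its G-box form CACGTG. Both are counted on either strand, the G-box reads the same on each, and every G-box is also an E-box. An E-box was present before 6 of the 7 genes, all but DEFL, and before 55.3% of 27439 protein-coding genes. A G-box was present before AT5G05250 (2 matches) and AT3G56360 (1 match), and before 6.49% of protein-coding genes. The windows of the peptide pair, which are near copies, and of the G-box genes are shown, each written 5′ to 3′ on the gene's own strand, with E-boxes in capitals. They span chr1:17382748-17382997 and chr1:17385457-17385706 (plus strand), chr5:1558487-1558736 (minus strand) and chr3:20896082-20896331 (plus strand).
AT1G47395: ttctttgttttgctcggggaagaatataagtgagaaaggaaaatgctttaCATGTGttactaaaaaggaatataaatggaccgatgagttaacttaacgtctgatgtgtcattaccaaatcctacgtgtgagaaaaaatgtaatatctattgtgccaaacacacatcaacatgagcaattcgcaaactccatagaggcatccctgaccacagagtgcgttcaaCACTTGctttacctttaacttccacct
AT1G47400: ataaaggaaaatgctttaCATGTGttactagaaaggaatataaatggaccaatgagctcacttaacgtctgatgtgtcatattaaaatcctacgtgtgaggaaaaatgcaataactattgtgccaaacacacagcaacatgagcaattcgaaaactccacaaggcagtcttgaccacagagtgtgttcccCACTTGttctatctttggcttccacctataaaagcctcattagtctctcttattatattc
AT5G05250: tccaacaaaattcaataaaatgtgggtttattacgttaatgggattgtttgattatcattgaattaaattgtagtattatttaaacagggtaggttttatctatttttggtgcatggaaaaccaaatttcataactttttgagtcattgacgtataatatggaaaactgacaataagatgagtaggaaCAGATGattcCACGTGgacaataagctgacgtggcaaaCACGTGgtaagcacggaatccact
AT3G56360: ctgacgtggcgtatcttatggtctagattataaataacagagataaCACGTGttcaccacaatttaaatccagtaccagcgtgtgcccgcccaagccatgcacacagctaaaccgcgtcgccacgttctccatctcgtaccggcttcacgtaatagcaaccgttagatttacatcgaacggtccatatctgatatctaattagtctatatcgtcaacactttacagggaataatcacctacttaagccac
AT1G47395 and AT1G47400 carried the same 2 hexamers, CATGTG and CACTTG. In AT5G05250 another E-box, CAGATG, stood beside the G-boxes. The corresponding window of FEP1 lies inside the body of AT2G30760. These matches are letters in a window, and no binding was measured.

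The values are normalized counts, in which 1 read was worth about 0.77 to 1.52, and the totals per leaf ranged over 18494378 to 31211055. A gene at or under 3 normalized counts in a leaf was treated as not detectable at this depth. That is about the level that a count of 0 allows where 1 read is worth about 1 normalized count. Where 1 read is worth more, as in 100 ppm PSI-PI leaf 1 at 1.52, values just over 3 are also within what a count of 0 allows. Each leaf correlated on average at 0.954 to 0.987 with the other leaves of its group on the log2 scale, and no library stood apart. The summed leaf mesophyll markers RBCS1A, CA1 and LHCB3 stood at 129099 normalized counts or more in every leaf. Of 4 root markers, 2 were in the table, and their sum was 1316 in 0 ppm GL leaf 2 and between 4.41 and 175 in the other 31 leaves. That leaf held the highest value of none of the 7 genes. The material was whole leaf, in which a smaller share of the cells that express a gene and less RNA per cell cannot be told apart.

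All 7 genes were lower in PSI-PI than in GL at 1000 ppm CO2, each with no overlap between the 4 PSI-PI and the 4 GL leaves. At 0, 100 and 400 ppm the non-overlapping genes numbered 3, 3 and 4 of 7. FEP1, AT5G05250 and AT3G56360 were separated at every CO2 level, IRP3 also at 400 ppm, and AT1G47395, AT1G47400 and DEFL at 1000 ppm alone. Some of these separations rest on GL leaves under the detection level of 3. They are IRP3 at 400 ppm, with GL leaves at 0.944 and 2.77, and DEFL at 1000 ppm, with a GL leaf at 2.99. By that level neither is a clear separation. Over all genes tested, 3.31%, 7.5%, 16.4% and 6.9% had every PSI-PI leaf below every GL leaf at 0, 100, 400 and 1000 ppm. The light comparison is what chose the 7 genes, so it is given as a description, with no test, and nothing is read from these counts. The median difference of the 7 genes between PSI-PI and GL, on the log2(normalized count + 1) scale, was -1.46, -1.57, -2.59 and -4.85 at 0, 100, 400 and 1000 ppm. With values under 3 raised to 3 it was -0.53, -1.01, -1.03 and -3.56, against medians of all genes between -0.01 and 0.00. Whether the light difference changed with CO2 was not tested. Summed cell type markers, 3 of 3 in the table for each type, were as follows at 1000 ppm. Phloem companion cell markers (SUC2, AHA3 and SULTR2;1) stood at 7873 to 12595 normalized counts in PSI-PI and 7911 to 9548 in GL, epidermis markers (ATML1, PDF1 and FDH) at 3189 to 5109 in PSI-PI and 4687 to 6067 in GL, guard cell markers (MYB60, FAMA and HT1) at 609 to 882 in PSI-PI and 757 to 888 in GL, and mesophyll markers at 364612 to 672243 in PSI-PI and 212171 to 517201 in GL. The ranges overlapped for every type at that level. At 100 ppm, phloem markers stood at 12704 to 13837 in PSI-PI and 7782 to 9894 in GL, and mesophyll markers at 693934 to 1037140 in PSI-PI and 532847 to 667100 in GL, with no overlap. Within the mesophyll sum the markers did not move together. At 100 ppm RBCS1A averaged 550326 in PSI-PI and 363451 in GL, CA1 216624 and 106667, and LHCB3 96958 and 127351. LHCB3 was also lower in PSI-PI at 1000 ppm, at 34576 against 46040 in GL, where RBCS1A and CA1 were higher. The sum is therefore no measure of the share of mesophyll cells. The phloem markers did not all move together either. At 1000 ppm SUC2 averaged 3020 in PSI-PI and 3301 in GL, and SULTR2;1 averaged 3281 and 2096. At 100 ppm all 3 phloem markers averaged higher in PSI-PI than in GL. The part of these markers in the light differences was not tested.

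**Figure D1:**
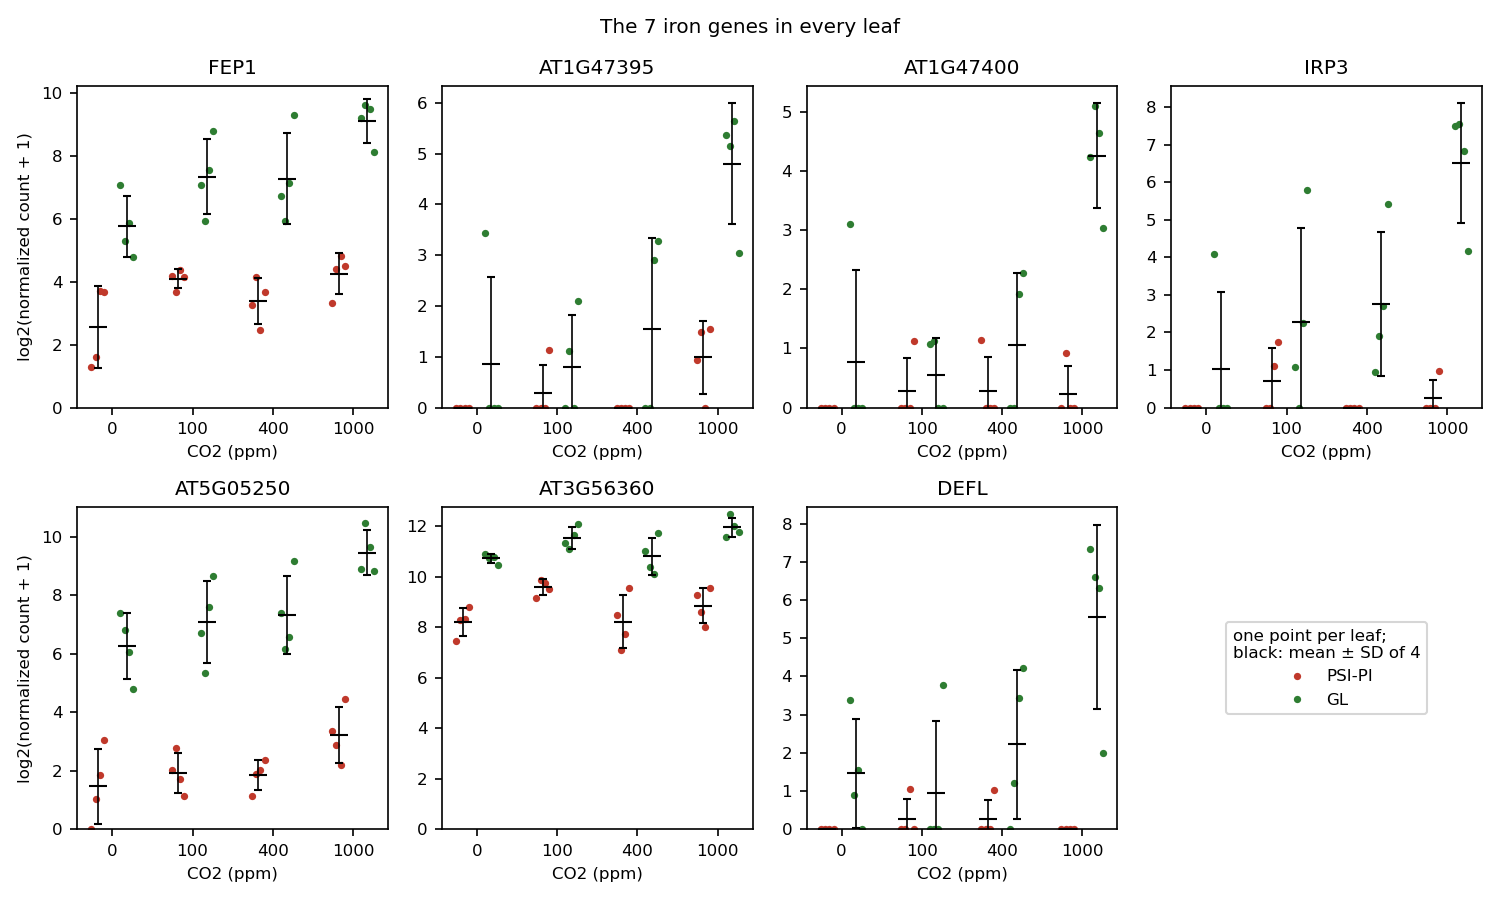
Level of each of the 7 iron genes in every leaf, as log2(normalized count + 1), by CO2 level in ppm, with PSI-PI leaves in red on the left and GL leaves in green on the right of each level. Black marks are the mean and SD of 4 leaves. At 1000 ppm the red and green points of every gene are apart, and AT1G47395, AT1G47400, IRP3 and DEFL lie below 2 on this scale in every PSI-PI leaf.

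FEP1, whose peptide promotes iron uptake, was above 0 in all 32 leaves and above 3 in 14 of 16 PSI-PI and all 16 GL leaves. In the absence of CO2 it read 1.45, 2.04, 11.9 and 11.6 normalized counts in the PSI-PI leaves 1 to 4, against 133, 38.4, 57.3 and 26.7 in the GL leaves. With 100 ppm CO2 it read 17.1, 11.6, 19.7 and 16.7 in PSI-PI, against 133, 59.5, 187 and 442 in GL. From lowest to highest the PSI-PI leaves spread 1.70-fold and the GL leaves 7.43-fold at this level. The spreads were 8.20-fold in PSI-PI and 4.99-fold in GL at 0 ppm, 3.73-fold and 10.4-fold at 400 ppm, and 3.01-fold and 2.85-fold at 1000 ppm. Under 400 ppm the PSI-PI leaves read 8.46, 16.8, 4.49 and 11.7, against 105, 60.2, 139 and 629 in GL. Under 1000 ppm they read 8.95, 20.2, 27.0 and 21.5, against 584, 785, 714 and 275 in GL. On the log2 scale FEP1 differed by -3.20, -3.25, -3.89 and -4.85 (SE 0.65 each) between PSI-PI and GL, from 0 to 1000 ppm. With each leaf left out in turn these differences ran from -3.57 to -2.76, from -3.72 to -2.76, from -4.34 to -3.22 and from -5.18 to -4.53.

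AT1G47395 and AT1G47400, the paired peptide genes, were near zero outside one group. AT1G47395 was listed at 0 in 12 of 16 PSI-PI leaves and reached at most 1.92 there. In GL it read 9.76, 0, 0 and 0 at 0 ppm, 0, 1.17, 0 and 3.28 at 100 ppm, and 0, 0, 6.49 and 8.72 at 400 ppm. At 1000 ppm it read 0.917, 1.82, 0 and 1.92 in PSI-PI, against 40.3, 34.5, 48.9 and 7.25 in GL. Every GL leaf at 1000 ppm was thus above the detection level and every PSI-PI leaf was not. AT1G47400 was listed at 0 in 13 of 16 PSI-PI leaves and reached at most 1.20. In GL it read 7.58, 0, 0 and 0 at 0 ppm, 1.11, 1.17, 0 and 0 at 100 ppm, and 0, 0, 2.78 and 3.88 at 400 ppm. At 1000 ppm it read 0, 0.906, 0 and 0 in PSI-PI, against 17.9, 33.5, 24 and 7.22 in GL. In GL both were above 0 in 0 ppm leaf 1, in 100 ppm leaf 2, in 400 ppm leaves 3 and 4 and in all leaves at 1000 ppm. At 100 ppm their highest GL leaves differed, leaf 4 for AT1G47395 and leaf 2 for AT1G47400. Summed, the pair gave 58.2, 68.0, 72.9 and 14.5 in the 1000 ppm GL leaves.

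IRP3, the iron-responsive protein gene, was listed at 0 in 13 of 16 PSI-PI leaves, with a highest value there of 2.36. Its GL leaves read 16.2, 0, 0 and 0 at 0 ppm, 1.11, 0, 3.78 and 54.2 at 100 ppm, and 0.944, 2.77, 5.53 and 42.2 at 400 ppm. At 1000 ppm CO2 IRP3 read 0, 0, 0 and 0.959 in PSI-PI, against 180, 186, 113 and 16.9 in GL. A single leaf carried most of its signal in each GL group below 1000 ppm. DEFL, the defensin-like gene, was listed at 0 in 14 of 16 PSI-PI leaves, with a highest value of 1.07. In GL it read 9.34, 0.868, 1.93 and 0 at 0 ppm, 0, 0, 0 and 12.7 at 100 ppm, and 0, 1.31, 9.80 and 17.7 at 400 ppm. At 1000 ppm it was listed at 0 in all 4 PSI-PI leaves, against 162, 95.5, 77.8 and 2.99 in GL. Set against a level of 3 per leaf for the PSI-PI leaves, DEFL was at least 28.2-fold lower in PSI-PI than its GL mean of 84.5 ± 65.2 (SD, n = 4). The fourth GL leaf, at 2.99, was itself at the limit of detection.

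AT5G05250 was above 3 in 9 of 16 PSI-PI leaves and in all 16 GL leaves. At 0 ppm it read 0, 1.03, 2.57 and 7.21 normalized counts in PSI-PI, against 168, 113, 66.2 and 26.8 in GL. At 100 ppm it read 3.05, 5.88, 2.28 and 1.18 in PSI-PI, against 105, 39.4, 195 and 401 in GL. The lowest GL leaf was still several times the highest PSI-PI leaf. At 400 ppm AT5G05250 read 1.18, 2.71, 3.04 and 4.13 in PSI-PI, against 168, 71.6, 94.3 and 584 in GL. At 1000 ppm AT5G05250 read 9.15, 6.36, 3.55 and 21.1 in PSI-PI, against 476, 1435, 799 and 460 in GL. The log2 differences between PSI-PI and GL were -4.80, -5.17, -5.49 and -6.25 from 0 to 1000 ppm (SE 0.70 each). With each leaf left out they ran from -5.32 to -4.31, from -5.75 to -4.65, from -5.87 to -4.87 and from -6.67 to -5.91. Since many PSI-PI leaves were at or under 3, their size also depended on the pseudocount. With a pseudocount of 5 the difference was -3.50 at 0 ppm and -4.44 at 400 ppm.

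AT3G56360 kept a clear level in PSI-PI as well. At 0 ppm it read 177, 311, 317 and 446 in PSI-PI, against 1896, 1718, 1783 and 1412 in GL. At 100 ppm it read 577, 943, 873 and 722 in PSI-PI, against 2590, 2194, 3197 and 4355 in GL. No PSI-PI leaf reached the GL range at either level. At 400 ppm AT3G56360 read 358, 137, 211 and 756 in PSI-PI, against 2049, 1327, 1108 and 3408 in GL. At 1000 ppm AT3G56360 read 617, 387, 255 and 744 in PSI-PI, against 3028, 5691, 4073 and 3544 in GL. Its log2 differences between PSI-PI and GL, -2.51, -1.96, -2.59 and -3.10 (SE 0.40), were smaller in size than those of FEP1 and AT5G05250 at every CO2 level. With each leaf left out they ran from -2.70 to -2.26, from -2.11 to -1.78, from -3.03 to -2.21 and from -3.33 to -2.82.

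**Figure D2:**
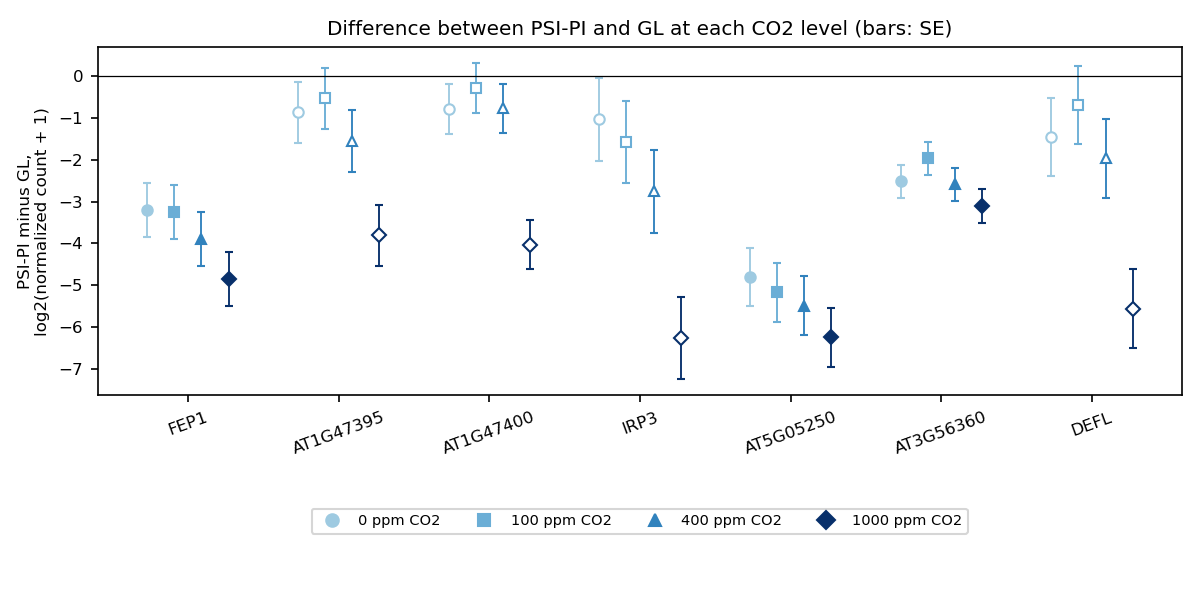
Difference between PSI-PI and GL for each gene at each CO2 level, on the log2(normalized count + 1) scale, with SE bars from the fit over 32 leaves. Hollow symbols mark genes for which one or both light groups were at or under 3 normalized counts in every leaf, so that the size is no bound on the fold. The symbols for FEP1, AT5G05250 and AT3G56360 are solid at every level and run from -1.96 to -6.25.

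Ordered by mean log2 level, the group at the top was GL at 1000 ppm for all 7 genes. For AT1G47400 this group did not overlap the next one, GL at 400 ppm, and for the other 6 genes it overlapped the group below it. For FEP1, AT5G05250 and AT3G56360 all 4 PSI-PI groups stood below all 4 GL groups in this order. AT5G05250 and AT3G56360 had a gap between the highest PSI-PI and the lowest GL group, and in FEP1 those groups met, with 27.0 in the highest 1000 ppm PSI-PI leaf and 26.7 in the lowest 0 ppm GL leaf. For AT1G47395 GL at 400 ppm was followed by PSI-PI at 1000 ppm, although at values under 3.

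The level of CO2 was the other factor, and the genes were not chosen on a comparison of CO2 levels. It was tested within each light treatment against 400 ppm, with limma on log2(normalized count + 1) over all 32 leaves and p-values adjusted by Benjamini-Hochberg over 21469 genes. A gene was called where the adjusted p was under 0.05 and the log2 change at least 1 in size. The 3 comparisons within a light treatment share the 400 ppm leaves, and all use leaves that also entered the light comparison, so they are not wholly independent of how the genes were chosen. This limit is strongest for 1000 against 400 ppm in GL. AT1G47395, AT1G47400 and DEFL were separated between the light treatments at 1000 ppm alone, through their high GL leaves. The same GL leaves enter that test, so its calls and directions are not independent support.

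In GL, 2 of the 7 genes, AT1G47395 and AT1G47400, rose at 1000 against 400 ppm CO2, and the log2 changes of all 7 were positive, at 1.15 to 3.76. Of all genes tested, 0.233% were called in this comparison, and 0.107% were called higher. All 7 had an unadjusted p under 0.05, as had 10.5% of all genes, and the median log2 change of the 7 was 3.21, or 2.19 with values under 3 raised to 3, against 0.00 for all genes. AT1G47400 averaged 20.7 ± 11.0 at 1000 ppm and 1.66 ± 1.97 at 400 ppm (SD, n = 4 each), and rose by 3.21 on the log2 scale (SE 0.60, limma adjusted p = 0.00917). It was the only member with every 1000 ppm leaf above every 400 ppm leaf, which 4.67% of all genes showed. AT1G47395 averaged 32.7 ± 18.0 at 1000 ppm and 3.80 ± 4.48 at 400 ppm, and rose by 3.25 (SE 0.73, limma adjusted p = 0.0408), with an overlap at 1000 ppm leaf 4. This call was lost with a replicate block (adjusted p = 0.0546) and with a pseudocount of 0.5 (adjusted p = 0.0786). Added together as 1 gene, the pair rose by 3.76 (limma adjusted p = 0.0398). The call of AT1G47395 was lost without 400 ppm leaf 1 (adjusted p = 0.142) or leaf 2 (0.216), and without 1000 ppm leaf 2 (0.12) or leaf 3 (0.156). The call of AT1G47400 was lost without 400 ppm leaf 2 (adjusted p = 0.0770) or 1000 ppm leaf 2 (0.0540), and neither passed in a fit of these 8 leaves alone (0.187 for AT1G47395 and 0.106 for AT1G47400). In these limma fits the direction stayed positive. The 1000 ppm GL leaves behind both calls also set the pair apart in the light comparison that chose the genes. The summed guard cell markers stood at 757 to 888 normalized counts at 1000 ppm and 521 to 632 at 400 ppm in GL, and the epidermis markers at 4687 to 6067 at 1000 ppm and 6071 to 6589 at 400 ppm. Their part in the changes of the 7 genes was not tested.

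The other 5 members had larger relative spreads or smaller changes and did not pass. IRP3 averaged 124 ± 78.6 at 1000 ppm and 12.9 ± 19.6 at 400 ppm (log2 change 3.76, SE 0.99, limma adjusted p = 0.10). It passed without 400 ppm leaf 4, its highest at that level (4.65, adjusted p = 0.0396), and with a pseudocount of 5 (2.99, limma adjusted p = 0.0344). DEFL averaged 84.5 ± 65.2 at 1000 ppm and 7.20 ± 8.24 at 400 ppm (3.34, SE 0.94, limma adjusted p = 0.132), and passed without 1000 ppm leaf 4 (4.53, adjusted p = 0.0117). AT5G05250 averaged 792 ± 456 at 1000 ppm and 229 ± 240 at 400 ppm (2.13, SE 0.70, limma adjusted p = 0.221). FEP1 averaged 590 ± 226 at 1000 ppm and 233 ± 266 at 400 ppm (1.83, SE 0.65, limma adjusted p = 0.256). For AT3G56360 the means were 4084 ± 1153 at 1000 ppm and 1973 ± 1038 at 400 ppm (1.15, SE 0.40, limma adjusted p = 0.252). The 95% intervals of these log2 changes ran from 0.50 to 3.15 for FEP1, from 0.70 to 3.57 for AT5G05250 and from 0.34 to 1.96 for AT3G56360. A miss of the threshold here does not show equal levels at 1000 and 400 ppm.

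**Figure D3:**
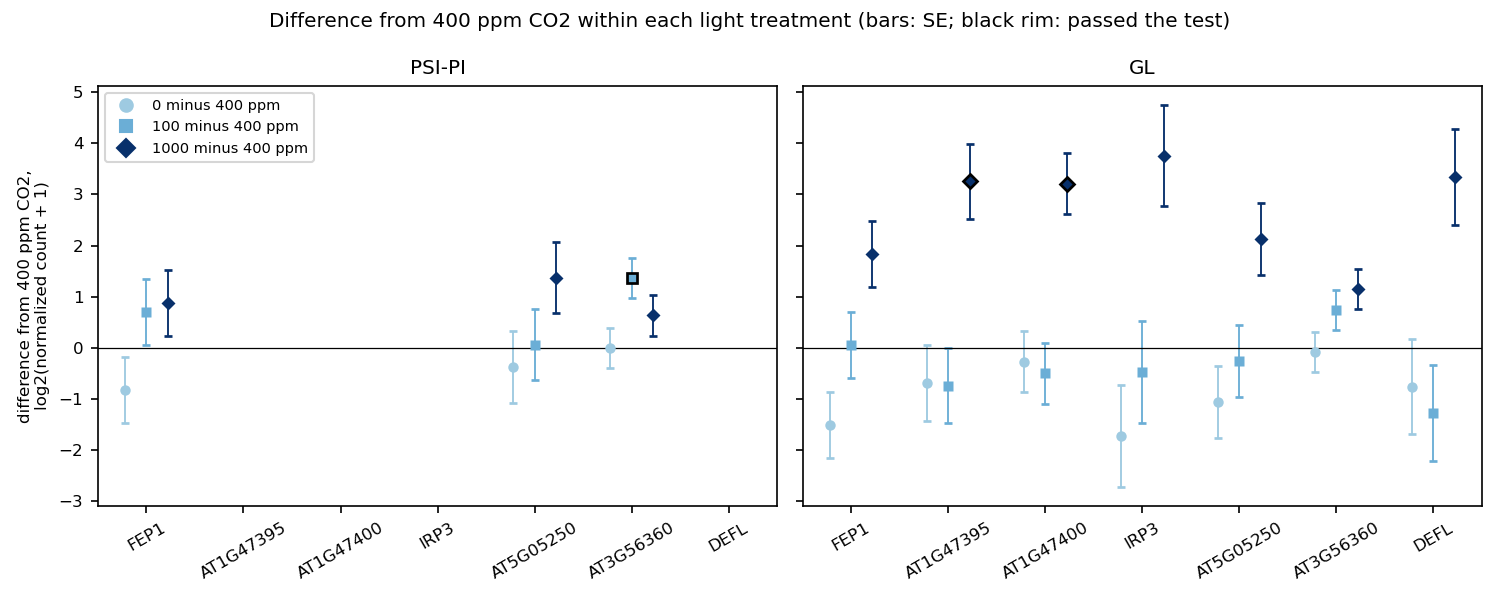
Change of each gene from 400 ppm CO2 to 0, 100 and 1000 ppm within PSI-PI (left) and GL (right), on the log2(normalized count + 1) scale with SE bars. Pairs of groups at or under 3 normalized counts in every leaf are left out, and a black rim marks changes that passed the test. In PSI-PI the rim is on AT3G56360 at 100 ppm, and in GL the 1000 ppm symbols lie above zero for all 7 genes, from 1.15 to 3.76, with rims on AT1G47395 and AT1G47400.

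In PSI-PI the same step of CO2 gave no call among the 7 genes, where 0.461% of all genes were called, and none had an unadjusted p under 0.05 in limma. AT5G05250 averaged 10.04 ± 7.71 at 1000 ppm and 2.76 ± 1.22 at 400 ppm (log2 change 1.37, SE 0.70, limma adjusted p = 0.333). FEP1 averaged 19.4 ± 7.57 at 1000 ppm and 10.4 ± 5.19 at 400 ppm (0.87, SE 0.65, limma adjusted p = 0.535). AT1G47395, AT1G47400, IRP3 and DEFL were at or under 3 in every PSI-PI leaf at 1000 and 400 ppm, so no change could be detected in them. The difference between the light treatments in the response to 1000 ppm was not tested.

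At 0 against 400 ppm in GL none of the 7 genes was called, where 10.2% of all genes were. Their log2 changes were -1.73 to -0.08, with an overlap between the groups in all 7, and the mean of AT1G47400 was 1.90 at 0 ppm and 1.66 at 400 ppm. The median change was -0.76, or -0.51 with values raised to 3. FEP1 had the lowest p of the 7: it averaged 63.8 ± 47.8 at 0 ppm and 233 ± 266 at 400 ppm in GL (-1.52, SE 0.65, limma adjusted p = 0.0699), and it was the only one with an unadjusted p under 0.05 (0.0262), where 43.3% of all genes had one. FEP1 passed without 0 ppm leaf 1 (adjusted p = 0.0254) or 400 ppm leaf 2 (0.0279), and IRP3 passed without 0 ppm leaf 1 (-2.75, adjusted p = 0.0263). Between 100 and 400 ppm in GL the 7 genes changed by -1.27 to 0.74, with 5 negative and 2 positive, 0 calls and 0 unadjusted p under 0.05 in limma, where 8.15% of all genes were called. In PSI-PI no member was called between 0 and 400 ppm, and 0 had an unadjusted p under 0.05, where 4.68% of all genes were called by limma.

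AT3G56360 was the only member called in PSI-PI. In photoinhibited leaves it averaged 779 ± 163 at 100 ppm and 365 ± 276 at 400 ppm (SD, n = 4 each) and rose by 1.36 (SE 0.40, limma adjusted p = 0.0141), where 4.64% of all genes were called and 2.66% as higher. The groups overlapped through 400 ppm leaf 4, at 756. In the same leaves the phloem markers summed to 12704 to 13837 at 100 ppm and 8969 to 10556 at 400 ppm, and the guard cell markers to 366 to 482 at 100 ppm and 532 to 674 at 400 ppm, neither with an overlap, and their part in this change was not tested. The call was lost without 400 ppm leaf 2 (0.99, adjusted p = 0.0821) or leaf 3 (1.19, adjusted p = 0.0543). In GL AT3G56360 averaged 3084 ± 942 at 100 ppm and 1973 ± 1038 at 400 ppm (0.74, SE 0.40, limma adjusted p = 0.156).

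The GL leaves of a group differed from each other, and the 7 genes differed together. Leaf 1 at 0 ppm had the highest value of all 7 genes in its group, and leaf 4 at 400 ppm the highest of all 7. At 100 ppm leaf 4 was highest for 6 genes, all but AT1G47400. At 1000 ppm leaf 4 was lowest for 6 genes, all but AT3G56360, and leaf 2 was highest for 5. Leaf numbers name samples and were treated as carrying no order or link between groups. Over the 16 PSI-PI leaves, where 4 of the 7 genes were not detectable, the deviations from the group means correlated positively in 15 of 21 pairs of genes, with a median Pearson r of 0.13 and a range of -0.40 to 0.63. Over the 16 GL leaves they did so in 21 of 21 pairs, with a median of 0.74 and a range of 0.20 to 0.90. Not every pair stayed positive without the 2 farthest leaves. AT1G47400 then gave -0.16 with AT3G56360 and -0.004 with AT5G05250, and AT1G47395 gave 0.03 with AT3G56360. AT1G47395, AT1G47400, IRP3 and DEFL were listed at 0 in 7, 7, 4 and 5 of the 16 GL leaves. Among FEP1, AT5G05250 and AT3G56360, which were well above the detection level in every GL leaf, the 3 correlations were 0.11 to 0.58 in PSI-PI and 0.77 to 0.90 in GL. Without the 2 farthest leaves they were -0.05 to 0.48 in PSI-PI and 0.56 to 0.85 in GL. The genes of a leaf share its library and depth, so these correlations are descriptions.

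**Figure D4:**
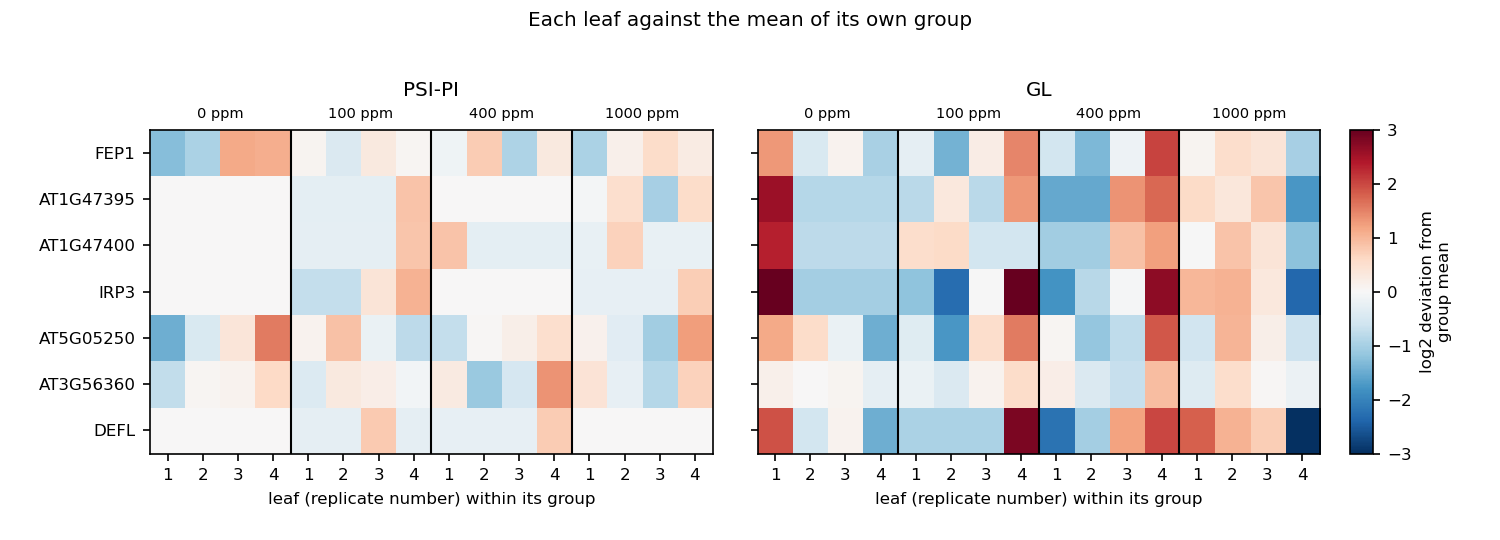
Deviation of each leaf from the mean of its own group on the log2(normalized count + 1) scale, for the 7 genes (rows) in PSI-PI (left) and GL (right) leaves, with CO2 levels side by side. Red is above and blue below the group mean. In GL whole columns share a colour, red for 0 ppm leaf 1 and 400 ppm leaf 4 and blue for 1000 ppm leaf 4, with AT3G56360 the palest.

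Genes outside the 7 were ranked by how closely they followed the mean standardized level of the 7 over the 32 leaves, among 18086 genes with a mean of at least 10. The 10 closest included ORG1 (AT5G53450, Pearson r 0.91), BTSL1 (AT1G74770, 0.91), OPT3 (0.86), ZIF1 (0.84) and BHLH101 (0.79). BTSL1 encodes a BTS-like ligase, OPT3 a transporter that loads iron into the phloem, ZIF1 a vacuolar transporter of the iron chelator nicotianamine, and BHLH101 a subgroup Ib factor. The other 5 were PAO4 (0.82), a polyamine oxidase gene, AT1G31780 (0.81), AT1G67410 (0.81), CAD1 (0.79), the gene of a phytochelatin synthase, and the sucrose transporter gene SUT2 (0.79). By deviations within groups the 5 closest were BHLH101 (0.87), AT3G17770 (0.78), BTSL1 (0.75), TSO2 (0.73), a ribonucleotide reductase subunit gene, and AT5G50630 (0.71). These genes were selected for this likeness, so their values are given without a test.

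ORG1 read 1236, 1240, 1037 and 1126 in the PSI-PI leaves at 1000 ppm, against 3656, 8890, 4979 and 3279 in GL. At 400 ppm it read 1201, 1221, 1180 and 1302 in PSI-PI, against 1692, 1311, 1301 and 2874 in GL. It was thus steady across the PSI-PI leaves and high in all GL leaves at 1000 ppm and in 400 ppm GL leaf 4. BTSL1 read 6.42, 5.46, 1.78 and 11.5 in PSI-PI at 1000 ppm, against 41.1, 95.0, 47.8 and 15.4 in GL. OPT3 read 1240, 1195, 1152 and 1383 in PSI-PI at 1000 ppm, against 3601, 4733, 4001 and 2639 in GL. Leaf 4 was the lowest GL leaf at 1000 ppm in all of these. BHLH101 read 2.91, 5.37, 0.941 and 4.05 in PSI-PI at 1000 ppm, against 29.0, 80.7, 36.6 and 6.12 in GL. In GL it read 36.9, 8.93, 7.24 and 2.16 at 0 ppm and 2.01, 0, 3.89 and 17.8 at 400 ppm, with 0 ppm leaf 1 and 400 ppm leaf 4 again the highest. Its deviations over the 16 GL leaves correlated with the mean of the 7 genes at r = 0.95, and at 0.92 without the 2 farthest leaves. BHLH38, BHLH39 and BHLH100, looked at after their values were seen, gave 0.83, 0.88 and 0.87, and 0.85, 0.88 and 0.90 without the 2 farthest leaves. They were listed at 0 in 15, 15 and 16 of the 16 PSI-PI leaves. In GL many leaves were listed at 0 as well, among them leaves 1, 2 and 3 at 100 ppm for each of these genes. Their correlations therefore rest on fewer leaves above 0.

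**Figure D5:**
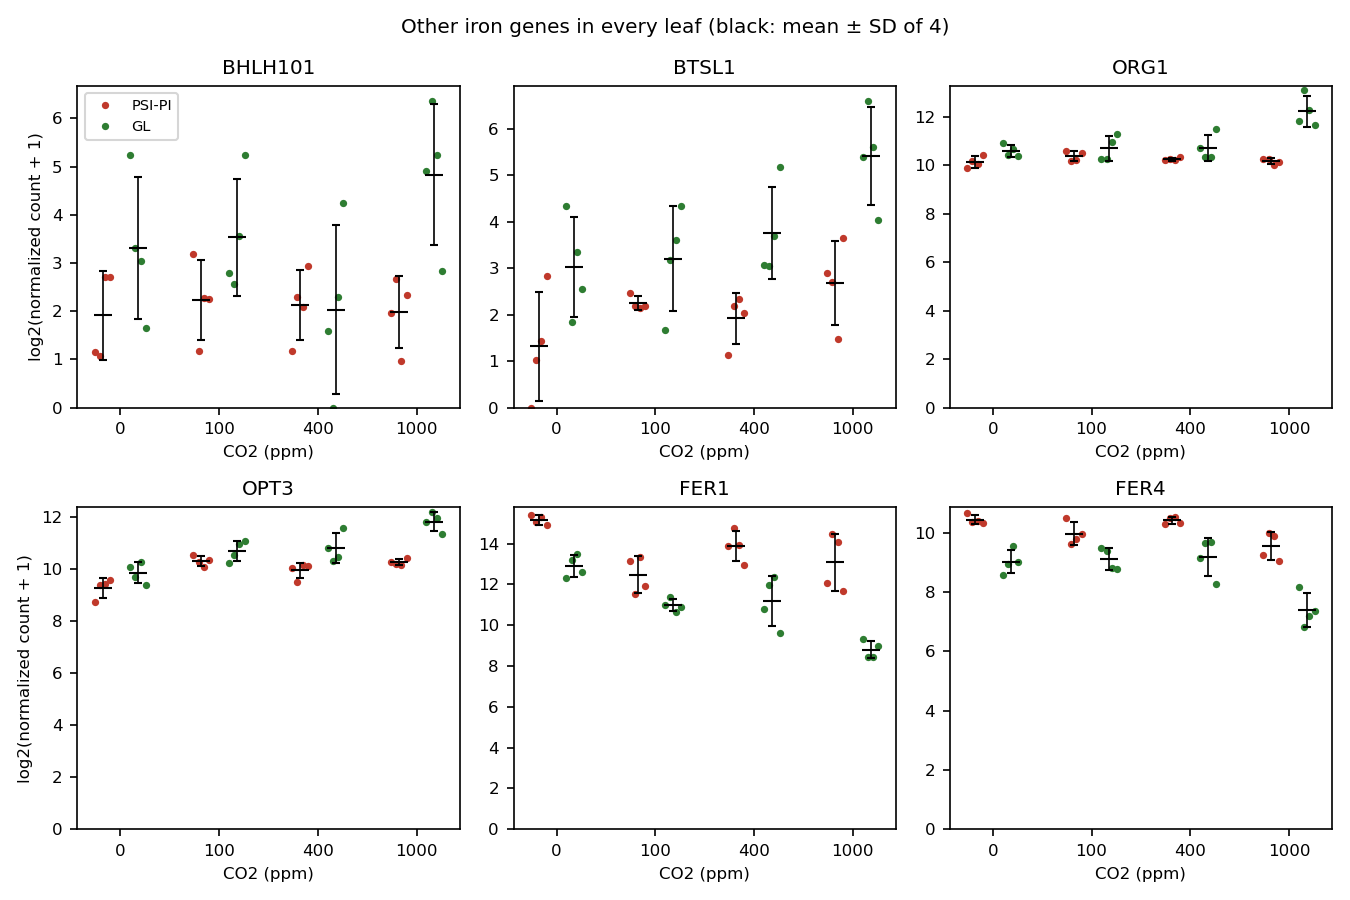
Level in every leaf of BHLH101, BTSL1, ORG1, OPT3, FER1 and FER4, as log2(normalized count + 1), by CO2 level in ppm, with PSI-PI leaves in red on the left and GL leaves in green on the right. Black marks are the mean and SD of 4 leaves. The first 4 genes are highest in GL at 1000 ppm, where the ferritin genes FER1 and FER4 are at their lowest.

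Lists of other iron genes were read in the same fits. Of 15 regulators of the iron deficiency response, all tested, 0 were called by limma in any of the 6 CO2 comparisons. At 1000 against 400 ppm in GL, 9 of the 15 had an unadjusted p under 0.05, 8 with a positive and 1 with a negative log2 change, beside 10.5% of all genes. In the other 5 comparisons 2 to 4 did, beside 16.4% to 43.3% of all genes. The median log2 change of the list at 1000 ppm in GL was 0.21. BHLH101 had a log2 change of 2.80 (SE 0.80, limma adjusted p = 0.136), BTSL1 one of 1.66 (SE 0.63, limma adjusted p = 0.297) and BHLH11 one of -1.26 (SE 0.37, limma adjusted p = 0.16), and none passed. In the light comparison, 1, 2, 3 and 5 regulators had every PSI-PI leaf below every GL leaf at 0, 100, 400 and 1000 ppm, beside the 3.31%, 7.5%, 16.4% and 6.9% of all genes given above. The 5 at 1000 ppm were BHLH101, PYE, BTS, BTSL1 and FIT. With every PSI-PI leaf above every GL leaf there were 1, 3, 3 and 1 regulators, where 4.86%, 12%, 17.8% and 9.11% of all genes did so: BHLH34 at 0 ppm, ILR3, BHLH34 and URI at 100 ppm, ILR3, BHLH104 and URI at 400 ppm and BHLH104 at 1000 ppm. Of 14 genes of iron uptake and transport, 11 were tested. NAS3, a nicotianamine synthase gene, rose at 0 against 400 ppm in GL (1.78, SE 0.51, limma adjusted p = 0.00776), a call lost without 400 ppm GL leaf 4 (adjusted p = 0.0550). NAS1, another synthase gene, fell at 0 against 400 ppm in PSI-PI by 1.14 on the log2 scale (SE 0.40, limma adjusted p = 0.0405), a call lost in 6 of the 8 fits that left out 1 leaf, with an adjusted p of up to 0.135 (without 0 ppm PSI-PI leaf 1). In the light comparison, 0, 0, 4 and 2 of the 11 had every PSI-PI leaf below every GL leaf at 0, 100, 400 and 1000 ppm, with OPT3 and ZIF1 among them at 400 and 1000 ppm, and 0, 2, 1 and 1 had every PSI-PI leaf above. NAS3 was above at 100, 400 and 1000 ppm and YSL1 at 100 ppm.

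Of 9 genes of iron storage and excess, 7 were tested, and at 1000 against 400 ppm in GL, where AT1G47395 and AT1G47400 rose, 2 of them, FER1 and FER4, fell and the other 5 did not pass. FER4 read 287, 111, 145 and 162 at 1000 ppm, against 566, 797, 818 and 311 at 400 ppm (-1.81, SE 0.28, limma adjusted p = 0.00135), with no overlap. FER1 read 645, 352, 348 and 503 at 1000 ppm, against 1771, 3947, 5215 and 783 at 400 ppm (-2.37, SE 0.54, limma adjusted p = 0.0450). The leaf with the least FER1 and FER4 at 400 ppm was leaf 4, the leaf with the most of all 7 iron deficiency genes. The FER4 call held in every fit that left out 1 leaf and was lost in a fit of these 8 leaves alone (adjusted p = 0.0933). The FER1 call was lost without 400 ppm leaf 1, 2 or 3 (adjusted p = 0.0675, 0.215 and 0.207) and without 1000 ppm leaf 2, 3 or 4 (0.140, 0.147 and 0.123). Over the 16 GL leaves the deviations of FER1 and FER4 correlated with the mean of the 7 genes at r = -0.48 and -0.53, and at -0.08 and -0.25 without the 2 farthest leaves.

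In the remaining CO2 comparisons 3 storage genes were called. FER1 rose at 0 against 400 ppm in GL (1.72, SE 0.54, limma adjusted p = 0.0156), a call lost without 0 ppm GL leaf 3 (adjusted p = 0.0514) or 400 ppm GL leaf 4 (0.0971). NEET, the gene of an iron-sulfur protein, rose at 100 against 400 ppm in GL (1.03, SE 0.38, limma adjusted p = 0.0389), a call lost in 5 of the 8 fits that left out 1 leaf, with an adjusted p of up to 0.117 (without 400 ppm GL leaf 1). FER3 fell at 100 against 400 ppm in PSI-PI by 1.46 (SE 0.43, limma adjusted p = 0.0147), a call lost without 100 ppm leaf 2 (adjusted p = 0.0583) or 400 ppm leaf 2 (0.0513). Between the light treatments, 6, 6, 5 and 6 of the 7 tested storage genes had every PSI-PI leaf above every GL leaf at 0, 100, 400 and 1000 ppm, beside the shares of all genes given for the regulators. FER1, FER3, FER4, VTL2 and NEET did so at every CO2 level. FER1 read 4296, 22914, 17055 and 3317 in PSI-PI at 1000 ppm, against 645, 352, 348 and 503 in GL. These light values come from the comparison that chose the 7 genes and carry no test.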

How the data were processed

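RNA-seq was done on 32 Arabidopsis leaves, 4 in each of 8 groups, and each leaf was taken as an independent replicate, as the study's methods describe. The authors estimated transcript counts with Salmon 0.12 on TAIR10 transcripts, summed them per gene, removed genes with fewer than 10 counts in all and deposited counts normalized by DESeq2, a signal in which 95.0% of values are not whole numbers. Since these are not raw counts, no count model was run. The deposited table also holds the authors' log2 fold changes and p-values for their own comparisons, and neither was used.

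Values were analysed as log2(normalized count + 1) with limma 3.58.1 in R 4.3.3, in 1 model of the 8 group means with a mean-variance trend, 24 residual degrees of freedom and two-sided tests, after 56 of 21525 genes with a sum under 10 were left out. p-values were adjusted by the Benjamini-Hochberg method over 21469 genes, and a call needed an adjusted p under 0.05 and a log2 change of at least 1. The procedure was tested on simulated data. Python 3.11.15, pandas 2.3.3, numpy 2.4.6 and matplotlib 3.10.9 were used for tables and plots. Intervals of changes are 95% intervals from limma, and the detection level of 3 normalized counts per leaf covers counting error only. Sequences and coordinates are from the RefSeq TAIR10.1 genome and annotation.

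The members, the gene lists and the tests were chosen with earlier results of these data known. The genes named are the 7 members, up to 3 called genes of each iron list with the largest change, the 10 genes closest in pattern over 32 leaves and the 5 closest in deviations within groups, and genes named beyond this (the other bHLH genes, the further regulators and storage genes in the counts of light differences, the neighbours of FEP1 and YSL1 and the values of BHLH101, BTSL1 and BHLH11 among the regulators) were chosen after their values were seen. Alternatives were other pseudocounts, a stricter filter, quantile normalization, no trend, a replicate block, the samples of 1 comparison alone, no minimum fold, the neighbouring peptide genes summed and each leaf left out. Leaves with the same number in different groups were not linked: their deviations correlated at -0.134 to 0.108 on average, and in no comparison did every pair exceed 0.1.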

Additional observations from a re-analysis of the deposited data

Results flagged for a closer look

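In 4 pairs of a gene and a group, all in GL at 0 or 100 ppm CO2, 1 leaf lay far from the other 3 by Dixon's test at the 95% level, which any single leaf above 0 meets where the other 3 are listed at 0. In GL at 0 ppm CO2, leaf 1 held 9.76 normalized counts of AT1G47395, 7.58 of AT1G47400 and 16.2 of IRP3, and in each case the other 3 leaves were listed at 0. In GL at 100 ppm, leaf 4 held 12.7 normalized counts of DEFL, with the other 3 leaves at 0. The test was made in 39 of 56 gene and group pairs, those with at least 1 leaf above 3, and chance alone flags about 1 in 20 groups. The same leaves were also the highest of their groups in FEP1, AT5G05250 and AT3G56360, at 133, 168 and 1896 in 0 ppm GL leaf 1 and at 442, 401 and 4355 in 100 ppm GL leaf 4.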

How the results depend on the processing

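No value changed sign with a call under any alternative. At 1000 against 400 ppm in GL, where 2 of the 7 genes were called, 1 was called with a pseudocount of 0.5, 1 with a replicate block and 1 with the neighbours AT1G47395 and AT1G47400 summed, and 0 with only the 8 samples of the comparison or with a filter of at least 10 in at least 4 samples, which removed both called genes. IRP3 was called with a pseudocount of 5 (log2 change 2.99, limma adjusted p = 0.0344), and the highest count under these alternatives was 3. With each leaf left out, 0 to 3 were called. At 0 against 400 ppm in GL 1 was called with a pseudocount of 5 (FEP1, adjusted p = 0.0481, limma) and 0 to 2 with a leaf left out. At 100 against 400 ppm in PSI-PI 0 to 1 were called with a leaf left out. The replicate block, for leaves with the same number, changed no other count for the 7 genes. The median light difference of the 7 genes at 0, 100 and 400 ppm was -3.24, -3.57 and -4.49 as a log2 ratio of group means, over the genes for which such a ratio exists. With a pseudocount of 5 it was -0.56, -1.30 and -3.53 at 0, 400 and 1000 ppm, and with the stricter filter -2.51 at 0 ppm. With a leaf left out it ran from -1.94 to -0.82, from -2.11 to -0.45, from -2.77 to -1.86 and from -5.18 to -4.53 at 0, 100, 400 and 1000 ppm. Alternatives for the other iron lists were added after the data were seen: regulators gave 1 call instead of 0 with quantile normalization and 1 with only the 8 samples of a comparison, uptake genes gave 4 instead of 2 with quantile normalization, and leaving out a leaf gave 0 to 2, 3 to 8 (5 with all leaves) and 1 to 4 calls for regulators, storage and uptake. FER4 at 1000 ppm in GL missed the threshold with only the 8 samples (adjusted p = 0.0933, limma), as did FER1 (0.138), which also missed it without the variance trend (0.0650). Without a minimum fold change, calls over all genes at 0, 100 and 1000 against 400 ppm went up to 7256, 7391 and 81 in GL, with 2182, 1750 and 50 under the main rule, and to 4506, 4863 and 361 in PSI-PI, with 1004, 996 and 99. With only 8 samples 23 genes were called at 1000 ppm in GL and 381 at 0 ppm in PSI-PI. With a leaf left out the counts were 21 to 136 at 1000 ppm in GL, 14 to 191 at 1000 ppm in PSI-PI and 640 to 1582 at 0 ppm in PSI-PI. Where causes are not given they were not tested. Depth limits AT1G47395, AT1G47400, IRP3 and DEFL, which were at or under 3 normalized counts in all 16 PSI-PI leaves.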
